A study of Arabidopsis thaliana with 30 samples.

Results

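The genes described here are 48 nuclear genes of Arabidopsis thaliana whose proteins work in the chloroplast's photosynthetic machinery. They were chosen by name from a fixed list of loci, with no measured value in the rule, although earlier results of these data were known when the list was chosen. All 48 were found among the 33602 loci of the count tables. By role they comprise 4 antenna genes of photosystem I (LHCA), 13 antenna genes of photosystem II (LHCB), 12 subunit genes of photosystem I (PSA), 9 subunit genes of photosystem II (PSB), 5 genes of Rubisco's small subunit and its activase (RBCS, RCA), 3 genes of electron carriers (PETC, PETE) and 2 of the chloroplast ATP synthase (ATPC1, ATPD). All 48 passed the low-count filter of every comparison, and the lowest count of any of them in a library was 15, for LHCB1.4.

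RNA was sequenced from inflorescences of plants that carried pSHP2-GAL4 and pUAS-3xYpet, a yellow fluorescent reporter switched on where the SHP2 promoter is active, crossed to pAP1-AP1::GR in an ap1 and cal mutant background. This genotype was shared by all groups, so every library came from the double mutant with its steroid-inducible AP1 fusion, and the labels give no age or time. Protoplasts, which are cells freed of their walls by enzymes, were sorted by fluorescence into reporter-positive cells (YFP-POS, n = 3), reporter-negative cells (YFP-NEG, n = 4) and all sorted cells regardless of reporter (ALL-SORT, n = 4), and whole inflorescences were frozen without digestion or sorting (NO-SORT, n = 4). The sample titles name the libraries as biological replicates, but nothing in the labels says whether these came from separate plants. The p-values therefore measure only the spread between these libraries.

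Light is caught by the LHC antenna proteins, which bind chlorophyll and pass the energy to the reaction centres of the photosystems. Photosystem II splits water at a manganese cluster shielded by the extrinsic proteins PSBO, PSBP and PSBQ, and electrons then pass through the cytochrome complex, which holds PETC, and plastocyanin, the product of PETE, to photosystem I. The ATP and reducing power so formed feed the Calvin cycle, where Rubisco, activated by RCA, fixes carbon. The reaction-centre cores are encoded in the chloroplast, whereas the genes described here lie in the nucleus, are strongly expressed in green leaf tissue and are lower in meristems and other young or non-green cells.

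Many of these genes exist as close copies, and the copies are what several results turn on. The 4 RBCS genes illustrate it: RBCS1A (AT1G67090) lies at chr1:25048158-25049667, and RBCS1B (AT5G38430, chr5:15383167-15385320), RBCS2B (AT5G38420, chr5:15380907-15382071) and RBCS3B (AT5G38410, chr5:15376988-15378642) lie side by side, all on the minus strand. Their last 60 coding bases are given 5′ to 3′ from RefSeq's TAIR10.1 genome and end with the stop codon. They are shown because they show how few bases separate RBCS1A from the other copies. In YFP-POS against YFP-NEG, RBCS1A had the smallest fall of the 4. Capitals mark bases that differ from RBCS1A or are inserted relative to it.
RBCS1A: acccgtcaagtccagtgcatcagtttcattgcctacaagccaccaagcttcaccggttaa
RBCS1B: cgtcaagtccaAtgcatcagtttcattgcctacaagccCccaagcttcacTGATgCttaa
RBCS2B: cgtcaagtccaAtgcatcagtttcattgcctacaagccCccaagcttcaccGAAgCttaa
RBCS3B: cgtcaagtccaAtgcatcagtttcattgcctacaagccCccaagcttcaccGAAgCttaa
Over the whole coding sequence the 3 copies on chromosome 5 were 94.1% to 97.25% identical to each other and 87.7% to 90.1% identical to RBCS1A. Windows of 125 bases, the number of sequencing cycles, were shared with another locus over 6.16% of RBCS1B and 10.04% of RBCS3B, and over 4.21% of LHCB2.1 and 5.30% of LHCB2.2. The other 44 genes shared no such window, but PSAD2 and PSBP1 overlap a neighbour on the same strand. The counts of these 6 genes are thus uncertain in how reads were assigned. On the opposite strand a neighbour overlaps LHCA4, LHCB1.3, LHCB1.5, LHCB2.3, LHCB3, LHCB4.2, LHCB6, PSAE1, PSAE2, PSAG, PSAH1, PSAH2, PSAN, PSBP1, PSBR and RCA. Whether counting used strand is not given, so the counts of those genes may be uncertain as well.

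The promoters of PSBQ1 (AT4G21280), PSBQ2 (AT4G05180) and RBCS2B are shown for their contrast in YFP-POS against YFP-NEG. There PSBQ2 and RBCS2B were among the genes that differed most, whereas PSBQ1 differed far less. Each line gives the 160 bases before the annotated gene start, 5′ to 3′ on the gene's strand, in TAIR10.1. They lie at chr4:11334192-11334351 on the plus strand, chr4:2673244-2673403 on the minus strand and chr5:15382072-15382231 on the minus strand.
PSBQ1: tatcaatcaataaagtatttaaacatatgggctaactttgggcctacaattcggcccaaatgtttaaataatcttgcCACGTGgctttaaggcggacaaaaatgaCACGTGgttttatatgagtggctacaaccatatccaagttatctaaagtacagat
PSBQ2: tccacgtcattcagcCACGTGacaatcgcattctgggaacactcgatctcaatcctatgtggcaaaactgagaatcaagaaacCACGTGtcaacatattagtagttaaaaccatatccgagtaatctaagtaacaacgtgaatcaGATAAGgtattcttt
RBCS2B: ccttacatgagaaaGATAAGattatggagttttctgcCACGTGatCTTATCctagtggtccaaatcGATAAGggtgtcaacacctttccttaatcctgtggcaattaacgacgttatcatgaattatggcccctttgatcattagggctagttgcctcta
Capitals mark the G-box, CACGTG, and the I-box, GATAAG or its reverse complement, motifs long known from promoters of light-regulated genes. Both PSBQ promoters hold a pair of G-boxes, at 83 and 55 bases before the start in PSBQ1 and at 145 and 77 bases in PSBQ2, and PSBQ2 also holds an I-box at 15 bases. RBCS2B holds a G-box at 123 bases flanked by I-boxes at 146, 115 and 94 bases. Over the 250 bases before the start and on both strands, the G-box occurred in 10 of the 48 genes (20.8%) against 6.49% of 27443 annotated promoters. The I-box occurred in 13 (27.1%) against 12.3%, and CCAATC occurred in 15 (31.2%) against 10.2%. The evening element, AAAATATCT, occurred in 1 of the 48 (2.08%) against 2.36%, and the CCA1 site, AAAAATCT, in 5 (10.4%) against 6.69%; none of these letter strings contains another. Among other genes that fell strongly in the reporter-positive cells, ATPD held a G-box at 142 bases and LHCB4.2 an I-box at 9 bases. Some lacked both the G-box and the I-box. PSBO2, RBCS1B and RBCS3B held none of these motifs, and PSAN and LHCB1.1 held only a CCA1 site. A match of letters is a description and does not show that a factor binds there. Whether the motifs relate to the changes was not tested.

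Total counts ranged from 12644721 to 21027032 per library. The labelled domain was checked with 7 genes of the medial gynoecium, and all 7 were higher in YFP-POS than in YFP-NEG, including SHP2 itself at a mean of 37.6 against 1.83 CPM (counts per 1e6 counts, with scaled library sizes). Replicate 4 of ALL-SORT stood apart. Across genes its log2 CPM correlated at 0.978 with replicate 1 of NO-SORT and at 0.944 to 0.963 with the other ALL-SORT libraries, which correlated at 0.970 to 0.978 with each other. Its summed level of 5 wounding genes was 697 CPM, against 2616 to 3918 CPM in the other ALL-SORT libraries and 2.54 to 16.9 CPM in NO-SORT. Counts that rest on ALL-SORT are therefore given with and without it.

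As a whole, the photosynthesis genes were lowest in the reporter-positive cells. Their summed level was 12940, 15880 and 13900 CPM in the 3 YFP-POS libraries. It was 19560, 22430, 18260 and 24880 CPM in YFP-NEG, 21320, 28390, 23690 and 25290 CPM in ALL-SORT and 26020, 23760, 22170 and 21970 CPM in NO-SORT. YFP-POS did not overlap any other group, and the other 3 groups overlapped each other. As a share of all counts the genes took 1.25% to 1.42% in YFP-POS, 1.84% to 2.503% in YFP-NEG, 2.11% to 2.63% in ALL-SORT and 2.43% to 2.67% in NO-SORT. For 28 of the 48 genes every YFP-POS library lay below all 12 others, against 10.1% of all expressed genes that did so. In bulk RNA, fewer green cells and less of these transcripts per cell cannot be told apart.

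**Figure D1:**
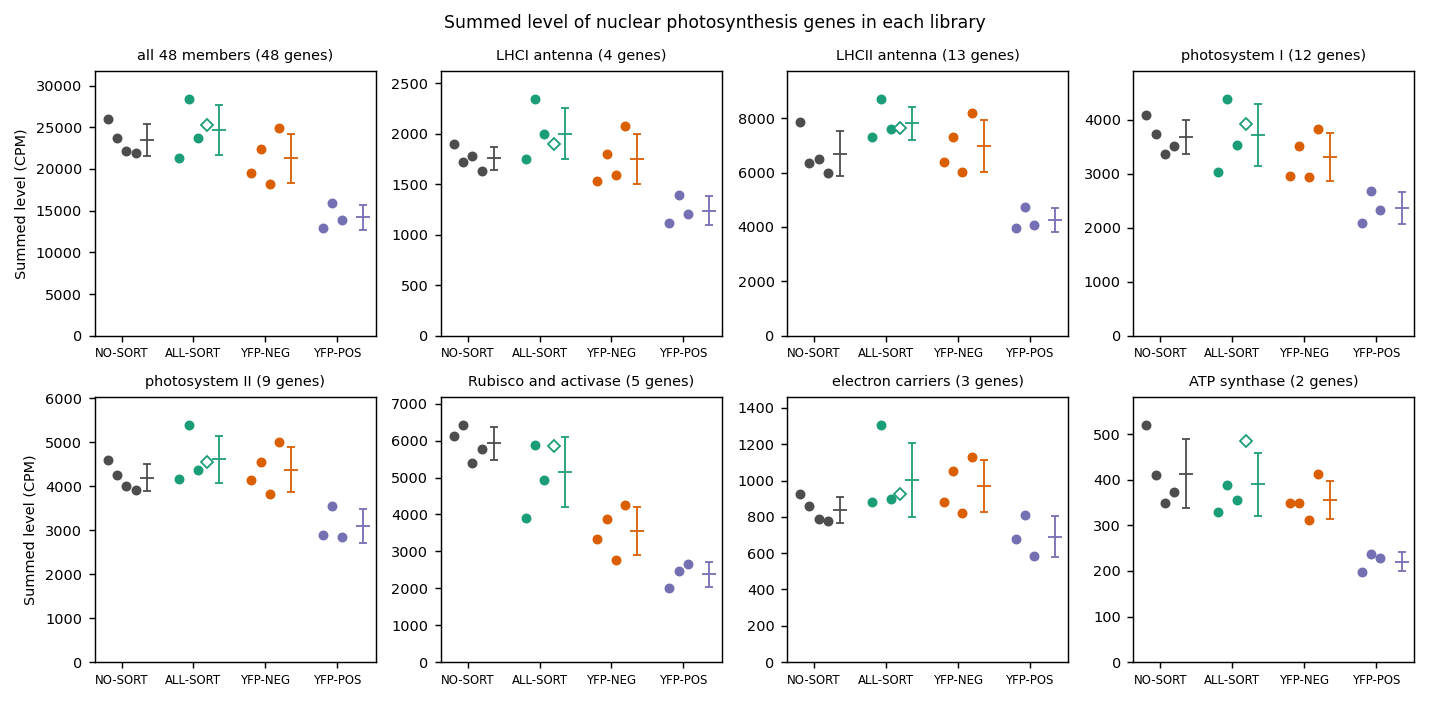
Summed level (CPM, y axis from 0) of all 48 photosynthesis genes and of each role class in the 4 groups (x axis); each point is a library, the open diamond is replicate 4 of ALL-SORT, and bars give mean ± SD. The 3 YFP-POS libraries sit between 12940 and 15880 CPM for all 48 genes, below every other library, and Rubisco and activase sum to 2755 to 4245 CPM in YFP-NEG and 5383 to 6416 CPM in NO-SORT.

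The first comparison set reporter-positive against reporter-negative protoplasts, which had gone through the same digestion and sorting. None of the 48 genes was higher in YFP-POS, 34 were lower and 14 did not pass the test, against a background of 24.4% of 18830 tested genes called higher and 24.4% called lower (edgeR's quasi-likelihood test, adjusted p under 0.05). DESeq2 also called none higher, and none was higher at an unadjusted p under 0.05. The median log2 fold change of the 48 was -0.60, against -0.01 over all genes tested, and single genes ranged from -1.85 to 0.01. Lower calls were made for 3 of 4 LHCA genes, 11 of 13 LHCB genes, 7 of 12 PSA genes, 5 of 9 PSB genes, 4 of 5 Rubisco and activase genes, 2 of 3 carrier genes and both ATP synthase genes. Calls near the threshold moved with the processing. LHCA1, PSAG, PSAL, PSBP1, RBCS1A and PETE2 were also called lower under upper-quartile scaling, under library totals and with all 15 libraries in 1 fit. All of these except LHCA1 were also gained with DESeq2. In these settings, in that order, the median of all genes moved from -0.015 to -0.107, -0.095, -0.071 and -0.094. Of all tested genes 28.5%, 27.3%, 25.8% and 22.7% were then called lower. PETE2 alone was gained in the paired fit, which leaves out replicate 4 of YFP-NEG because YFP-POS has no such replicate. The calls of LHCA3, LHCB1.4, LHCB2.1, PSAD2, PSAH2, PSBQ1, RCA and ATPC1 were lost without replicate 4 of YFP-NEG, and those of LHCA3, LHCB2.1, PSAD2, PSAH2, PSBQ1, RCA and ATPC1 also without replicate 1 of YFP-POS.

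**Figure D2:**
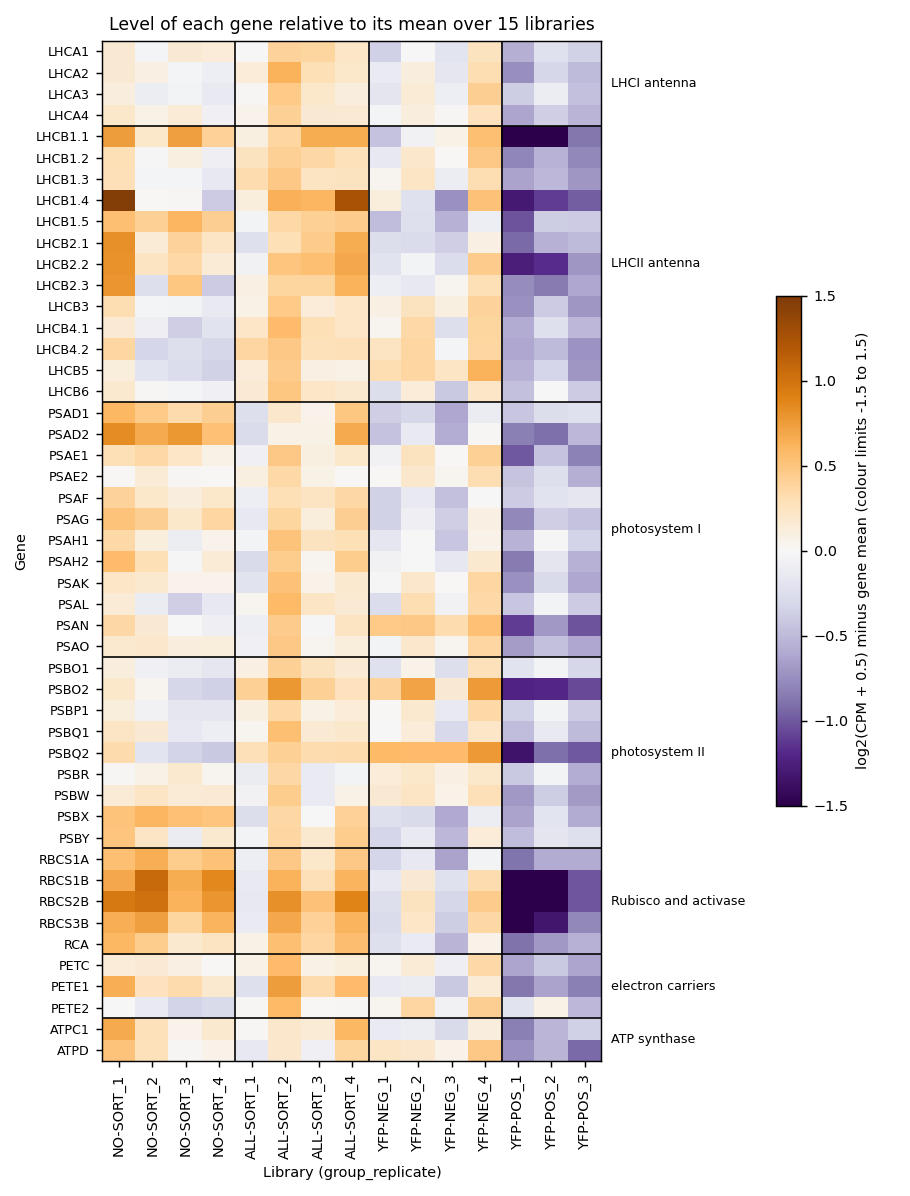
Level of each photosynthesis gene (rows, grouped by role) in each of the 15 libraries (columns), as log2(CPM + 0.5) minus the gene's mean over all libraries; colours stop at -1.5 and 1.5. The YFP-POS columns are the lowest for most genes, and among the darkest rows there are RBCS1B, RBCS2B, RBCS3B, PSBQ2, PSBO2 and LHCB1.1.

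Among the antenna genes of photosystem I, LHCA4 (AT3G47470) was the most abundant and also the one that fell most. It read 436, 519 and 464 CPM in YFP-POS against 657, 724, 680 and 807 CPM in YFP-NEG, with no overlap (-0.63 ± 0.14 on the log2 scale, SE, adjusted p = 0.00256). LHCA2 fell by 0.58 and LHCA3 by 0.43 on the log2 scale. The call of LHCA3 was marginal (adjusted p = 0.0485), and it was lost in the paired fit, the replicate block, where its log2 fold change was -0.29. LHCA1 read 207, 266 and 242 CPM in YFP-POS and 239.6, 306, 269.8 and 366 CPM in YFP-NEG. It gave the smallest change, -0.34 ± 0.16 (adjusted p = 0.0992), with overlapping groups.

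The photosystem II antenna holds the trimer proteins LHCB1, LHCB2 and LHCB3 and the monomers LHCB4, LHCB5 and LHCB6 that link the trimers to the core. LHCB1.3 (AT1G29930) had the highest CPM of the class, with 1461, 1597 and 1388 CPM in YFP-POS and 2339, 2659, 2124 and 2825 CPM in YFP-NEG. Its log2 fold change was -0.77 ± 0.16 (adjusted p = 0.00165), and no YFP-POS library reached the YFP-NEG range. LHCB1.1 (AT1G29920), its neighbour on chromosome 1, fell further, from 82.4, 110, 120 and 166 CPM to 36.6, 39.3 and 61.6 CPM (log2 fold change -1.41 ± 0.24, adjusted p = 0.000443). LHCB1.4 gave the lowest fold change of the class, -1.44 ± 0.43 (adjusted p = 0.0153), at only 0.98 to 1.36 CPM in YFP-POS and 1.70 to 4.74 CPM in YFP-NEG, and its call was lost with the replicate block (-1.12). By contrast LHCB1.5 (AT2G34420) read 298, 466 and 461 CPM in YFP-POS and 434, 517, 413 and 571 CPM in YFP-NEG, ranges that overlap (log2 fold change -0.27 ± 0.18, adjusted p = 0.227). With their counts summed, LHCB1.4 and LHCB1.5 gave -0.28 ± 0.18 (adjusted p = 0.219) and did not pass the test. The sum of LHCB1.1, LHCB1.2 and LHCB1.3 gave -0.81 ± 0.16 (adjusted p = 0.00146).

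The minor antenna proteins also split. LHCB5 (AT4G10340) fell from 1359, 1415, 1281 and 1695 CPM to 744, 875 and 668 CPM (-0.94 ± 0.16, adjusted p = 0.000483), without overlap. LHCB4.1 and LHCB4.2 fell by 0.61 and 0.89, and LHCB3 by 0.84. LHCB6, the product of which is CP24, had the smallest change of the class, -0.25 ± 0.18 (adjusted p = 0.277), with overlapping groups. Since LHCB2.1 and LHCB2.2 share sequence, their counts were also summed, and the sum fell by 0.72 (SE 0.16, adjusted p = 0.0033).

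Among the photosystem I subunits, PSAN (AT5G64040), a small protein on the lumen side, stood lowest. It read 112, 148 and 118 CPM in YFP-POS and 332, 337, 303 and 350 CPM in YFP-NEG, with no overlap and a log2 fold change of -1.42 ± 0.14 (adjusted p = 1.14e-05). PSAE1, PSAO, PSAK, PSAE2, PSAH2 and PSAD2 fell by 0.94, 0.76, 0.71, 0.58, 0.53 and 0.50. The call of PSAD2 was lost with the replicate block (-0.38). At the other end PSAD1 (AT4G02770), which like PSAD2 encodes the subunit where ferredoxin docks, read 153, 173 and 178 CPM in YFP-POS and 160, 167, 135 and 191 CPM in YFP-NEG. Its log2 fold change was 0.01 ± 0.14 (adjusted p = 0.948), and the ranges coincided. PSAL had the highest CPM of the class and gave -0.41 ± 0.18 (adjusted p = 0.072), with overlapping groups.

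The photosystem II subunits included the genes with the strongest tests of all 48. PSBQ2 read 129, 173 and 162 CPM in YFP-POS and 487, 485, 483 and 557 CPM in YFP-NEG. That is a log2 fold change of -1.73 ± 0.14, or 3.315-fold lower (adjusted p = 4.41e-06). PSBO2 (AT3G50820, chr3:18890874-18892508), the minor of the genes for the manganese-stabilising protein, read 61.5, 62.4 and 69.2 CPM against 190, 236, 162 and 245 CPM, which is 3.29-fold lower (adjusted p = 8.96e-06). For both genes every YFP-POS library lay far below every YFP-NEG library.

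Their partners differed less. PSBO1 (AT5G66570, chr5:26568572-26570461), the highest of the class in CPM, read 805, 899 and 742 CPM in YFP-POS and 793, 964, 783 and 1117 CPM in YFP-NEG, with a log2 fold change of -0.19 ± 0.16 (adjusted p = 0.353). PSBQ1 read 232, 295 and 229 CPM against 323, 357, 264 and 376 CPM, and it fell by 0.42 (SE 0.16, adjusted p = 0.0426) although the ranges overlapped. The PSBQ1 call was lost without replicate 1, 2 or 4 of YFP-NEG and without replicate 1 or 3 of YFP-POS, with changes of -0.42 to -0.33. PSBY, a small membrane protein, had the smallest change of the class at -0.13 ± 0.16 (adjusted p = 0.52), and PSBP1 and PSBX did not pass the test either. PSBW and PSBR fell by 0.80 and 0.51.

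RBCS1A carried most of the small-subunit transcripts in every library. It read 1459, 1791 and 1789 CPM in YFP-POS and 2149, 2427, 1729 and 2614 CPM in YFP-NEG, overlapping ranges with a log2 fold change of -0.44 ± 0.17 (adjusted p = 0.0541; 0.0136 with DESeq2). RBCS2B had the lowest fold change of all 48 genes, from 130, 182, 123 and 209 CPM to 25.0, 36.9 and 75.1 CPM (-1.85 ± 0.32, adjusted p = 0.000556). RBCS1B fell by 1.64 (SE 0.23, adjusted p = 0.000123) and RBCS3B by 1.28 (SE 0.24, adjusted p = 0.00106), both without overlap.

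Replicate 3 was the highest YFP-POS library for RBCS1B, RBCS2B and RBCS3B. Summed over these 3 copies, which removes any exchange of reads between them, the log2 fold change was -1.42 ± 0.26 (adjusted p = 0.000723). RCA read 374, 430 and 472 CPM against 593, 640, 483 and 729 CPM, ranges that did not overlap, and it fell by 0.55 (SE 0.16, adjusted p = 0.0132).

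Among the carriers, PETC, the Rieske protein, fell by 0.69 and PETE1 (AT1G76100), the minor plastocyanin gene, by 0.70 (SE 0.15, adjusted p = 0.00186), whereas PETE2 (AT1G20340), the major one, gave -0.43 ± 0.18 (adjusted p = 0.0629) with overlapping groups. ATPD (AT4G09650), the delta subunit of the ATP synthase, fell from 167, 164, 150 and 200 CPM to 85.9, 99.2 and 74.9 CPM (-1.003 ± 0.14, adjusted p = 0.000152). ATPC1, the gamma subunit, fell by 0.49 (adjusted p = 0.0134). Both ATP synthase genes were thus lower without overlap.

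**Figure D3:**
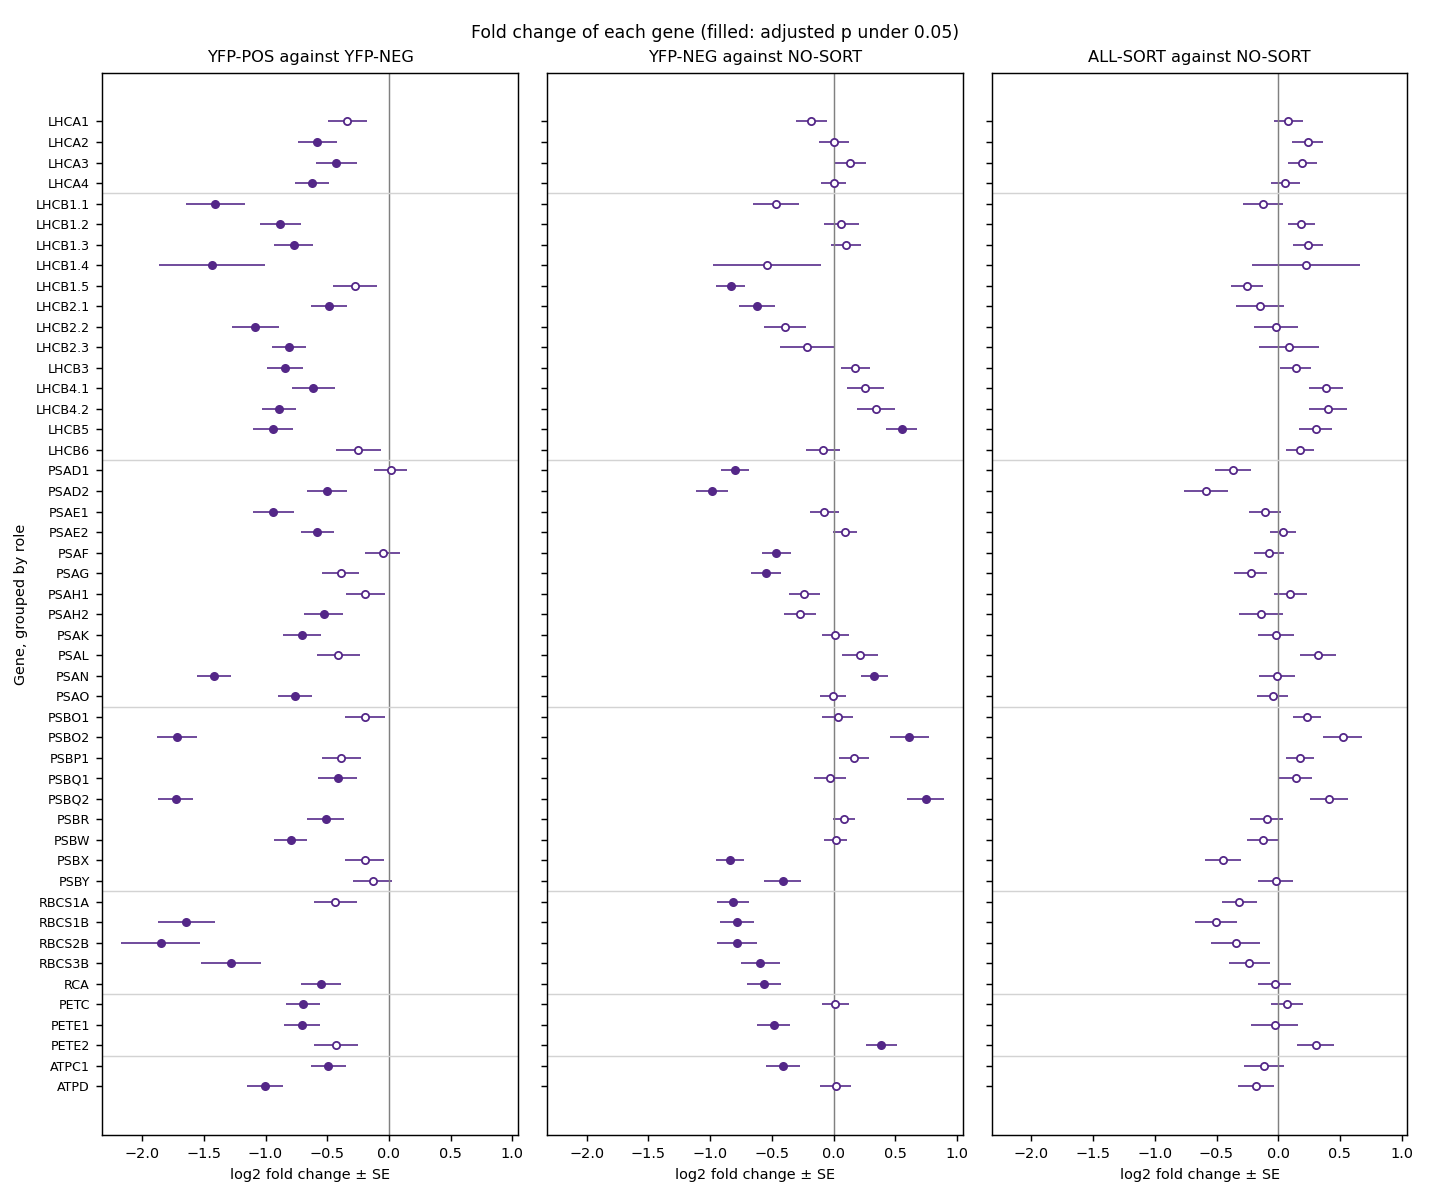
Log2 fold change (x axis, points with SE bars) of each photosynthesis gene (y axis, grouped by role) in 3 comparisons; filled points have an adjusted p under 0.05. YFP-POS lies below YFP-NEG for 34 filled genes, YFP-NEG against NO-SORT has 5 filled points to the right and 15 to the left, and ALL-SORT against NO-SORT has none.

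Reporter-positive cells were also compared with the 2 groups that hold all cells. Against NO-SORT, 43 of the 48 genes were lower in YFP-POS and none higher, where 23.8% of all tested genes were called lower and 22.2% higher. None was higher by DESeq2 or at an unadjusted p under 0.05 in this comparison or against ALL-SORT. The 5 genes that did not pass were LHCA3, PSAL, PSBO1, PSBP1 and PETE2. Of these PETE2 had the value nearest 0, -0.09 ± 0.16 (adjusted p = 0.682). RBCS2B was lowest again at -2.69 ± 0.31 (adjusted p = 5.3e-05). Against ALL-SORT, 40 were lower and none higher, against 10.5% of tested genes called lower and 3.36% higher. The same-numbered libraries of these groups deviated together, and the paired fit (replicate block) called all 48 lower, against 23.8% of tested genes. That fit leaves out replicate 4 of ALL-SORT, which has no same-numbered YFP-POS library, so pairing is not its only difference from the count of 40. Without replicate 4 of ALL-SORT the unpaired count was 38 (12.2% of tested genes). It was 15 without replicate 1 of YFP-POS (4.61%), 27 without replicate 2 (4.74%) and 29 without replicate 3 (9.6%), so calls over all genes dropped as well, while the median stayed between -0.92 and -0.75 over the libraries left out. These comparisons share the YFP-POS libraries with the one above, so they are not independent of it.

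The intact inflorescence and the unselected protoplasts gave the comparison that addresses digestion and sorting. None of the 48 genes was called in either direction in ALL-SORT against NO-SORT by edgeR, where 9.84% of tested genes were called higher and 3.6% lower. At an unadjusted p under 0.05, 5 were higher and 5 lower, and DESeq2 called 2 higher (11.8% of all tested genes) and 2 lower (6.63%). The median was -0.01 for the 48 genes and -0.04 over all genes. LHCB1.3 read 2845, 3145, 2677 and 2714 CPM in ALL-SORT and 2763, 2221, 2229 and 2043 CPM in NO-SORT, ranges that overlap (0.24 ± 0.12, adjusted p = 0.189).

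Without replicate 4 of ALL-SORT, 2 genes were higher (15.3% of all tested genes) and 4 lower (14.4%). PSBO2 gave 0.59 ± 0.15 (adjusted p = 0.0158) and LHCB4.1 0.43 ± 0.14 (adjusted p = 0.0423), both higher. PSAD2 gave -0.80 ± 0.13 (adjusted p = 0.000909), and PSAD1, PSBX and RBCS1B fell by 0.50, 0.54 and 0.59. With replicate 1 of NO-SORT left out instead, 4 were higher (11% of all tested genes) and none lower (5.51%). The 5 wounding genes, among them WRKY40 and RRTF1, rose in ALL-SORT with and without replicate 4.

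Reporter-negative protoplasts against whole inflorescences gave changes in both directions. In YFP-NEG, 5 of the 48 genes were higher and 15 lower than in NO-SORT, where 25.7% of all tested genes were called higher and 25.9% lower, and the median was -0.05 (-0.00 over all genes). The lower share was thus near the background and the higher share below it. The 5 Rubisco and activase genes were all lower. RBCS1A fell from 3922, 4238, 3639 and 3850 CPM to 2149, 2427, 1729 and 2614 CPM (-0.81 ± 0.13, adjusted p = 0.000185), without overlap. RBCS1B, RBCS2B, RBCS3B and RCA fell by 0.78, 0.79, 0.59 and 0.56. None of the 4 LHCA genes passed the test, and their changes ranged from -0.18 to 0.13.

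PSAD2 had the lowest fold change of the set here, from 146, 130, 139 and 117 CPM in NO-SORT to 59.4, 74.2, 54.4 and 82.3 CPM in YFP-NEG (-0.98 ± 0.13, adjusted p = 5.74e-05). PSAD1, PSBX and LHCB1.5 fell by 0.80, 0.84 and 0.83, each without overlap. PSAG, PSAF, PSBY, LHCB2.1, PETE1 and ATPC1 made up the remaining lower calls, with changes of -0.62 to -0.41. Between YFP-POS and YFP-NEG, which shares the YFP-NEG libraries with this comparison, LHCB1.5, PSAD1, PSBX and RBCS1A gave -0.27, 0.01, -0.20 and -0.44.

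The 5 higher genes were PSBQ2, PSBO2, LHCB5, PETE2 and PSAN. PSBQ2 read 411, 285, 258 and 245 CPM in NO-SORT and 487, 485, 483 and 557 CPM in YFP-NEG, a change of 0.74 ± 0.15 (adjusted p = 0.00112) with no overlap. LHCB5 rose by 0.55 (SE 0.12, adjusted p = 0.00275), PSBO2 by 0.61 (adjusted p = 0.00521), PETE2 by 0.39 (adjusted p = 0.022) and PSAN by 0.33 (adjusted p = 0.0234). Relative to library totals, which shifted the median of all genes in this comparison from -0.00 to -0.12, PETE2 (0.27) and PSAN (0.22) no longer passed. Both were also lost with all libraries in 1 fit and without replicate 3 or 4 of NO-SORT or replicate 4 of YFP-NEG, and PETE2 without replicate 2 of YFP-NEG. Of the lower calls, PSBY was lost without replicate 1, 2 or 4 of NO-SORT or replicate 1, 2 or 3 of YFP-NEG, and ATPC1 without replicate 1 or 3 of YFP-NEG.

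Between YFP-NEG and ALL-SORT, 2 of the 48 genes were lower, LHCB1.5 (-0.62, adjusted p = 0.0262) and RCA (-0.58, adjusted p = 0.0394), and none higher. Of all tested genes 10.9% were called lower and 2.65% higher. The same-numbered sorted libraries deviated together, and in the paired fit (replicate block) 10 were lower (12.7% of tested genes): LHCB1.1, LHCB1.5, LHCB2.1, PSAD1, PSAD2, PSAF, PSBY, RBCS1A, RBCS2B and RCA, with changes of -0.62 to -0.41. At an unadjusted p under 0.05, 1 was higher and 14 lower, and DESeq2 called 1 higher (6.14% of all tested genes) and 4 lower (12.7%). The count was 0 without replicate 3 of ALL-SORT, replicate 1 of YFP-NEG or replicate 3 of YFP-NEG, 1 without replicate 2 or 4 of ALL-SORT or replicate 2 of YFP-NEG, and 5 without replicate 1 of ALL-SORT. The share of all tested genes called lower moved from 4.16% to 11.4% over the libraries left out.

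The levels in whole tissue and in unselected protoplasts are given here for the genes just compared, by role, with the sorted values where they were not yet given. LHCA2 read 237, 319.7 and 279.9 CPM in YFP-POS and 362, 429.5, 353 and 491 CPM in YFP-NEG, and the groups did not overlap. LHCA2 read 446, 419.8, 387 and 374 CPM in NO-SORT and 435, 614, 488 and 458 CPM in ALL-SORT. LHCA4 read 770.2, 706, 743 and 640.1 CPM in NO-SORT and 694, 898, 756 and 749 CPM in ALL-SORT. LHCA2 and LHCA4 overlapped between tissue and protoplasts. LHCA1 read 347, 303, 348 and 337 CPM in NO-SORT and 305, 406, 401 and 357 CPM in ALL-SORT. LHCA1 overlapped as well, and replicate 2 of ALL-SORT was the highest ALL-SORT library for all 3 genes.

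In the trimer antenna, LHCB1.1 read 189, 130.3, 188 and 150.1 CPM in NO-SORT and 121, 147, 179.8 and 180.2 CPM in ALL-SORT. LHCB1.2 read 720.3, 580.2, 625 and 553 CPM in NO-SORT, 696, 779, 748 and 709.5 CPM in ALL-SORT, 527, 667, 589 and 814 CPM in YFP-NEG and 339, 400.0 and 340.2 CPM in YFP-POS. Its YFP-POS values lay below all others, as did those of LHCB1.1. LHCB1.4 read 9.64, 3.19, 3.22 and 2.29 CPM in NO-SORT and 3.48, 5.2, 5.05 and 8.2 CPM in ALL-SORT. LHCB1.5 read 883, 810.0, 926 and 815 CPM in NO-SORT and 588, 773, 810.4 and 828 CPM in ALL-SORT. Both overlapped, and LHCB1.4 was highest in replicate 1 of NO-SORT.

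LHCB2.1 read 208, 131, 156 and 138 CPM in NO-SORT, 101, 146, 162 and 187 CPM in ALL-SORT, 98.6, 97.8, 91 and 125 CPM in YFP-NEG and 61.5, 80.3 and 83.6 CPM in YFP-POS. LHCB2.2 read 142, 96, 104 and 90.3, then 78.2, 116, 119 and 131, then 70.8, 79, 67.9 and 111 and then 33.7, 35.6 and 49.5 CPM in the same order of groups. All 3 genes of the family were lower in YFP-POS than in any YFP-NEG library. LHCB2.3 read 108, 53.1, 87.8 and 47.7, then 66.8, 81.6, 81.8 and 97, then 58.9, 56.7, 64.1 and 76.9 and then 36.8, 34.5 and 40.7 CPM.

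Of the minor antenna, LHCB4.1 read 531, 450.5, 367 and 413 CPM in NO-SORT, 553, 705, 586 and 551 CPM in ALL-SORT, 487, 604, 401 and 617 CPM in YFP-NEG and 315, 405 and 333 CPM in YFP-POS. LHCB4.2 read 61, 37.8, 39.9 and 38.1, then 61.3, 66, 57.1 and 57.6, then 55.9, 61.3, 46.3 and 61.1 and then 30.6, 33.4 and 28.4 CPM in that order. ALL-SORT stood above NO-SORT for LHCB4.1 (0.39 ± 0.14, adjusted p = 0.0814), without passing the test. LHCB6 read 477, 426, 412 and 401, then 468, 586, 486 and 475, then 353, 462, 317 and 487 and then 304, 418 and 320.2 CPM.

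In photosystem I, PSAD1 read 311, 285, 259 and 277 CPM in NO-SORT and 175, 235, 214 and 289 CPM in ALL-SORT. PSAD2 read 146, 130, 139 and 117 CPM in NO-SORT and 67.3, 85.8, 85.9 and 129.8 CPM in ALL-SORT. For both, replicate 4 was the ALL-SORT library nearest to NO-SORT, and PSAD2 gave -0.59 ± 0.18 (adjusted p = 0.0559). PSAE1, a stromal subunit, read 261, 271, 246 and 224 CPM in NO-SORT, 203, 295, 227 and 245 CPM in ALL-SORT, 205, 253, 212 and 284 CPM in YFP-NEG and 106, 155 and 121 CPM in YFP-POS. Its copy PSAE2 read 122, 134, 123 and 122, then 130.1, 155, 128 and 122, then 122, 139, 124 and 151 and then 89.2, 103 and 81.5 CPM. YFP-POS was lowest for both.

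PSAH1 read 266, 227, 196 and 216 CPM in NO-SORT, 204, 297, 249.9 and 257 CPM in ALL-SORT, 186, 209, 156 and 219 CPM in YFP-NEG and 144, 206 and 165 CPM in YFP-POS. PSAH2 read 267, 221, 178 and 199.8, then 147, 244, 183 and 244, then 173, 178, 161 and 205 and then 99.7, 158.7 and 122 CPM. YFP-POS did not overlap YFP-NEG for PSAH2 but did for PSAH1. PSAL read 586, 490.0, 408 and 475, then 541, 791, 617 and 591, then 439.7, 653, 509 and 674 and then 393, 514 and 401 CPM. PSAN read 309, 272, 241 and 229 CPM in NO-SORT and 228, 330.5, 239 and 286 CPM in ALL-SORT. Both overlapped between NO-SORT and ALL-SORT.

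In photosystem II, PSBO1 read 1000, 881, 857 and 823 CPM in NO-SORT and 979, 1238, 1100 and 1030 CPM in ALL-SORT. PSBO2 read 166, 147, 116 and 113 CPM in NO-SORT and 193, 249, 193 and 173 CPM in ALL-SORT. ALL-SORT lay above NO-SORT for PSBO2 (0.52 ± 0.16, adjusted p = 0.052) and overlapped it for PSBO1. PSBQ1 read 379, 365, 293 and 306 CPM in NO-SORT and 331, 474, 362 and 372 CPM in ALL-SORT. PSBQ2 read 399, 436, 408 and 412 CPM in ALL-SORT. PSBX, a small core subunit, read 418, 448, 426 and 414 CPM in NO-SORT, 246, 375, 293 and 387 CPM in ALL-SORT, 250.8, 241, 192 and 274 CPM in YFP-NEG and 188, 256 and 195 CPM in YFP-POS. For PSBX, ALL-SORT lay below NO-SORT (-0.45 ± 0.15, adjusted p = 0.0673). PSBY read 310.5, 256, 204 and 248, then 213, 284, 249 and 297, then 175, 199, 154 and 240.1 and then 156, 193 and 187 CPM.

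For Rubisco, RBCS1A read 2529, 3741, 3104 and 3729 CPM in ALL-SORT. RBCS1B read 93.2, 121, 91.7 and 105 CPM in NO-SORT, 52.7, 89.2, 70.6 and 88.8 CPM in ALL-SORT, 52.2, 65.2, 49.7 and 72.6 CPM in YFP-NEG and 15, 15.2 and 28.4 CPM in YFP-POS. Its ALL-SORT values lay below those of NO-SORT (-0.505 ± 0.17, adjusted p = 0.0761). RBCS2B read 296, 309, 237 and 265 CPM in NO-SORT and 138, 269, 219.9 and 281 CPM in ALL-SORT. RBCS3B read 761, 805, 627 and 739, then 443, 774, 641 and 739, then 399, 559, 369.7 and 620.5 and then 140.1, 193 and 282 CPM. RCA read 1055, 943, 789 and 821 CPM in NO-SORT and 732, 1016, 900.3 and 1026 CPM in ALL-SORT. Replicate 1 was the lowest ALL-SORT library for all 5 genes of the class.

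Among the carriers, PETE1 read 93, 70.6, 74.2 and 66.9 CPM in NO-SORT, 50.2, 99.4, 74.3 and 87.3 CPM in ALL-SORT, 53.5, 54.6, 44.4 and 65.5 CPM in YFP-NEG and 31.8, 37.5 and 33.1 CPM in YFP-POS. PETE2 read 549, 502, 437 and 449.9, then 558, 819.9, 554 and 555, then 564, 709.9, 530.4 and 738 and then 477, 579.7 and 386 CPM. Its ALL-SORT libraries lay above NO-SORT without passing the test. ATPC1 read 316, 239, 204 and 224, then 199.5, 226, 219 and 298, then 181, 185, 161 and 213 and then 111, 137 and 154 CPM. ATPD read 204, 173, 145 and 150.0 CPM in NO-SORT and 129, 164, 137 and 187 CPM in ALL-SORT. The ATP synthase genes overlapped between NO-SORT and ALL-SORT.

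The balance between copies of the same protein was then compared in 10 sets of copies, as the log2 ratio of their counts within a library, which does not depend on the scaling between libraries. PSBO1 outnumbered PSBO2 in every library, and its counts were 13.1, 14.4 and 10.7 times those of PSBO2 in YFP-POS, 4.18, 4.09, 4.84 and 4.56 times in YFP-NEG, 5.06, 4.98, 5.69 and 5.95 times in ALL-SORT and 6.02, 5.99, 7.37 and 7.29 times in NO-SORT. All 4 groups occupied separate ranges. The mean log2 ratio was 1.52 higher in YFP-POS than in YFP-NEG. An exact 2-sided permutation test gave p = 0.0571 for it, the smallest that 3 against 4 libraries allow, and 0.101 after adjustment over 30 tests (10 sets of copies in 3 comparisons). All of these tests treated libraries as unpaired, although same-numbered sorted libraries deviated together.

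For PSBQ the order of the copies turned. PSBQ1 counts were 1.80, 1.70 and 1.41 times those of PSBQ2 in YFP-POS, but 0.66, 0.74, 0.55 and 0.68 times in YFP-NEG, a log2 difference of 1.32 (exact permutation p = 0.0571, adjusted 0.101). NO-SORT lay between at 0.92 to 1.28 times. RBCS1A counts were 8.10, 7.30 and 4.64 times the sum of the 3 chromosome 5 copies in YFP-POS, against 2.90 to 3.70 times in YFP-NEG and 3.41 to 3.81 times in NO-SORT. YFP-POS thus stood apart from both, by a log2 difference of 1.03 from YFP-NEG (exact permutation p = 0.0571, adjusted 0.101), whereas YFP-NEG and NO-SORT overlapped (log2 difference -0.15, exact permutation p = 0.143).

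Other ratios separated YFP-NEG from NO-SORT. PETE1 counts were 0.077 to 0.095 times those of PETE2 in YFP-NEG and 0.141 to 0.170 times in NO-SORT (log2 difference -0.87, exact permutation p = 0.0286, the smallest that 4 against 4 allow, adjusted 0.101). The sum of LHCB1.1, LHCB1.2 and LHCB1.3 was 6.61 to 6.84 times that of LHCB1.4 and LHCB1.5 in YFP-NEG and 3.28 to 4.12 times in NO-SORT (log2 difference 0.91, exact permutation p = 0.0286, adjusted 0.101). Another 5 sets separated YFP-POS from YFP-NEG: the log2 ratio was higher in YFP-POS by 0.515 for PSAD1/PSAD2, by 0.35 for PSAH1/PSAH2 and by 0.29 for LHCB4.1/LHCB4.2, and differed by -0.51 for the LHCB1 set and by -0.36 for PSAE1/PSAE2, each with an exact permutation p of 0.0571 (adjusted 0.101). Between ALL-SORT and NO-SORT the LHCB1 ratio was 0.48 higher and the PSBO1/PSBO2 ratio differed by -0.30, both without overlap (exact permutation p = 0.0286, adjusted 0.101). Without replicate 4 of ALL-SORT these differences were 0.55 and -0.34. None of the 30 tests had an adjusted p under 0.05. Those of 3 against 4 libraries could not reach it even unadjusted, and those of 4 against 4 could not go below 0.0286 before adjustment. The tests therefore cannot decide whether the ratios that separated differ between groups. Ratios of LHCB2.1 and LHCB2.2 to LHCB2.3 overlapped in all 3 comparisons.

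**Figure D4:**
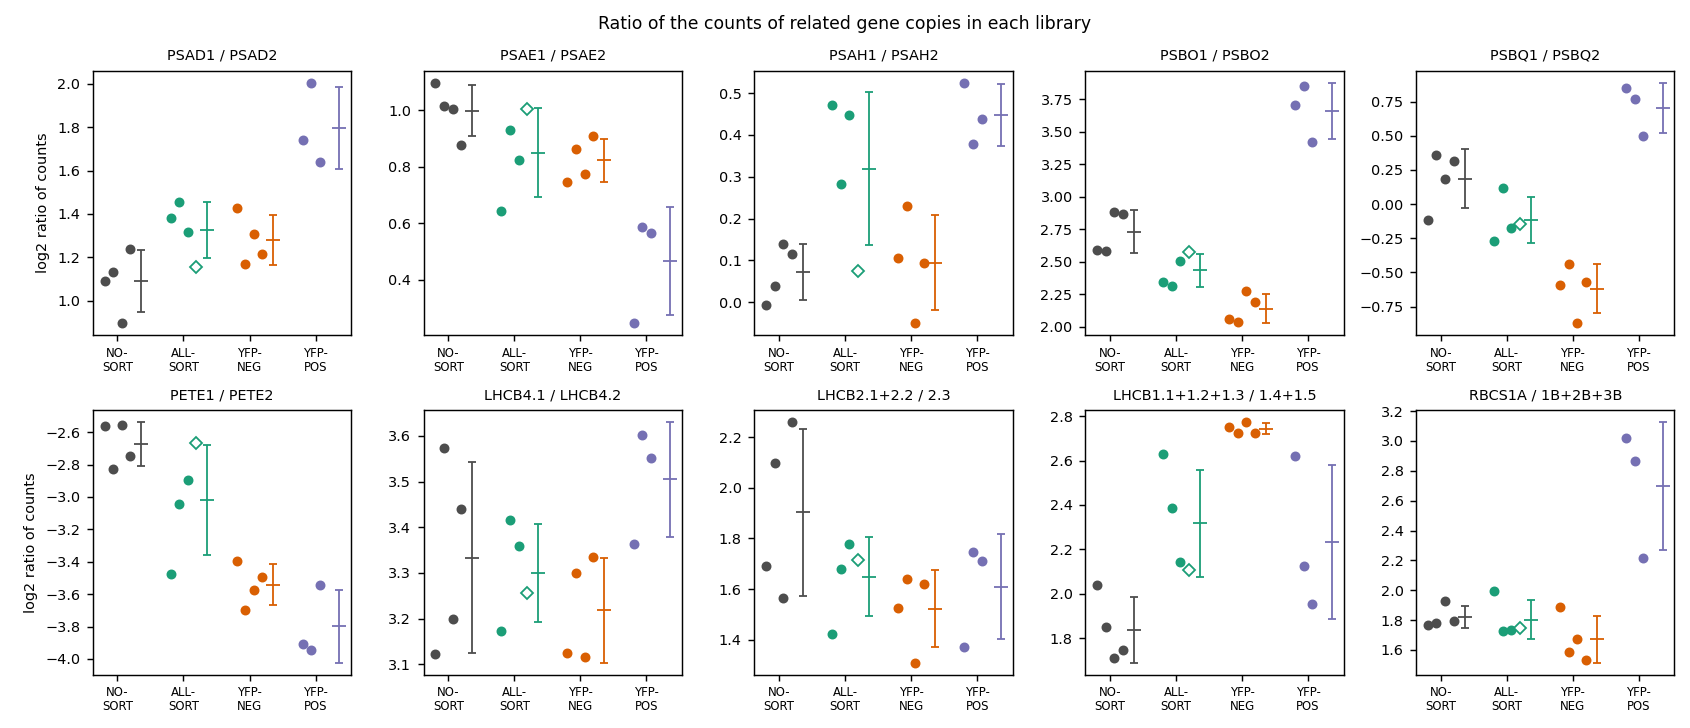
Log2 ratio of counts (y axis) between related copies in each library, for 10 sets of copies and 4 groups (x axis); points are libraries, the open diamond is replicate 4 of ALL-SORT, and bars give mean ± SD. The YFP-POS points stand above all others for PSBO1/PSBO2, PSBQ1/PSBQ2 and RBCS1A against the chromosome 5 copies.

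Per kilobase of transcript, RBCS1A was the highest of the 48 genes in NO-SORT at 3085 ± 196 CPM per kb (SD, n = 4), followed by LHCB1.3 at 1881 ± 253 CPM per kb, and the same pair led in YFP-POS at 1325 ± 151 and 1205 ± 86.4 CPM per kb (n = 3). In NO-SORT the gap between RBCS1A and LHCB1.3 was larger than their spread, and in YFP-POS it was within it. LHCB1.4 was the lowest in both groups, at 3.495 ± 2.59 and 0.90 ± 0.15 CPM per kb. All 48 genes, LHCB1.4 included, had counts in all 15 libraries.

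Other genes of the pathway were read from lists. In YFP-POS against YFP-NEG, 24.4% of all tested genes were called lower and 24.4% higher, the background for each list. Of 25 tested chlorophyll synthesis genes, 11 were lower and 3 higher in YFP-POS than in YFP-NEG, with a median of -0.30. DVR, a reductase of the pathway, fell by 1.03 and CHLI2, a subunit of magnesium chelatase, by 0.93, while CHLP, which makes chlorophyll's phytol tail, rose by 0.59 and CHLH, the large chelatase subunit, by 0.53. Of 19 Calvin cycle genes, 11 were lower and 2 higher (median -0.61). CP12-2, a small protein that ties Calvin cycle enzymes together, fell by 1.80 and HCEF1, a chloroplast fructose bisphosphatase, by 1.69, while FBA3, an aldolase, rose by 0.94 and TKL2, a transketolase, by 0.59.

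Of 24 other thylakoid genes, 14 were lower and 3 higher (median -0.53). PPL2, a PsbP-like protein, fell by 1.90 and LFNR2, a ferredoxin-NADP reductase, by 1.18, and STN8, a kinase of photosystem II proteins, rose by 0.92 and ATPC2, a second gamma subunit gene, by 0.77. In ALL-SORT against NO-SORT, 2 chlorophyll synthesis genes were higher and none lower, and without replicate 4 of ALL-SORT 5 were higher and 1 lower. Of all tested genes 9.84% were higher and 3.6% lower with that replicate, and 15.3% and 14.4% without it. HEMA2, a glutamyl-tRNA reductase, rose by 2.34 and HEMB1 by 0.67. In the Calvin cycle list, FBA3 rose by 0.39 and CP12-2 fell by 0.61, and none of the 24 other thylakoid genes was called. Without replicate 4 of ALL-SORT, 1 Calvin cycle gene was higher and 2 lower, and 2 other thylakoid genes were lower.

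Regulators of these genes were listed as well. GLK1 (GPRI1 in RefSeq) and GLK2 encode factors that activate antenna and chlorophyll genes. GLK1 averaged 8.15 CPM in YFP-POS, 28.1 in YFP-NEG, 34.6 in ALL-SORT and 42.6 in NO-SORT, and GLK2 averaged 12.7, 25.8, 28.4 and 28.9 CPM. Between YFP-POS and YFP-NEG, GLK1 fell by 1.81 (SE 0.24, adjusted p = 9.41e-05) and GLK2 by 1.05 (SE 0.16, adjusted p = 0.000195), both without overlap.

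Of 14 tested regulators 8 were lower and 3 higher in YFP-POS than in YFP-NEG, where 24.4% of all tested genes were called in each direction. The higher share was thus near the background. GNC, a GATA factor of chloroplast development, fell by 2.54. GUN1, of plastid-to-nucleus signalling, rose by 0.81 and HY5, a light-signalling factor, by 0.78. In ALL-SORT against NO-SORT no regulator was called, and GLK1 gave -0.35 ± 0.19 (adjusted p = 0.214) and GLK2 -0.08 ± 0.15 (adjusted p = 0.722). Without replicate 4 of ALL-SORT 3 regulators were lower (14.4% of all tested genes).

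Clock genes time the expression of photosynthesis genes over the day. Between YFP-POS and YFP-NEG, 3 of 11 were lower, 1 was higher and 7 did not pass the test, shares near or below the background of that comparison. ELF4 fell by 1.23, PRR7 by 0.71 and RVE8 by 0.42, and LHY rose by 0.63. In ALL-SORT against NO-SORT, LUX and TOC1 rose by 0.78 and 0.54, and PRR7 and RVE8 fell by 0.77 and 0.64. Without replicate 4 of ALL-SORT, 2 clock genes were higher (15.3% of all tested genes) and 3 lower (14.4%). Their part in the results was not tested.

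Markers of other cells moved with the sorted groups. Guard cells are green, and the summed level of 4 guard cell genes was 2.64 to 4.27 CPM in YFP-POS, 16.1 to 25.6 in YFP-NEG, 11.2 to 16.2 in ALL-SORT and 11.6 to 16.8 in NO-SORT. All 4 fell in YFP-POS against YFP-NEG, and 3 of them were higher in YFP-NEG than in NO-SORT. The 3 sepal, petal and stamen identity genes fell in YFP-POS (128 to 203.5 CPM summed, against 549.5 to 626 CPM in YFP-NEG).

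The 3 epidermis genes went the other way. Their summed level was 1336 to 1974 CPM in YFP-POS, 495 to 536 CPM in YFP-NEG and 1451 to 2394 CPM in NO-SORT. Of the 3 vascular genes 2 fell in YFP-POS against YFP-NEG and 1 was not called, and all 3 tested tapetum genes were lower, with AMS at 0.18 against 8.72 CPM. AMS also varied within NO-SORT, from 0.717 to 27.9 CPM. Of 3 tested shoot meristem genes CUC2 was higher (log2 fold change 2.09, adjusted p = 1.05e-05) and 2 were not called. The median of the 3 was 0.33. All 5 wounding genes had lower levels in YFP-POS, at 1329 to 2160 CPM summed against 3063 to 4450 CPM in YFP-NEG. The part of these cell types and of the wounding response in the lower photosynthesis genes was not tested.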

How the data were processed

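RNA from 15 libraries, each sequenced on 2 lanes (30 samples), was measured in 4 groups by strand-specific, single-end sequencing, per the labels' protocols. The deposited values are raw counts per locus, 1 column per library, and the submitters' processing notes name FastQC, TopHat2 2.0.10, HTSeq, edgeR, DESeq2, Cufflinks 2.2.1 and the TAIR10 build without giving their roles. How lanes were combined and whether counting used strand are not given in the sources used here.

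Each comparison was fitted on its own groups with edgeR 4.0.16 in R 4.3.3 (filterByExpr, TMM scaling, quasi-likelihood test, limma 3.58.1), and p-values were adjusted by Benjamini-Hochberg over all genes tested, with a threshold of 0.05. SE is the fold change over the square root of F. DESeq2 1.42.0, other scalings, no filter, all libraries in 1 fit, a stricter threshold, left-out libraries, summed copies and a replicate block were the alternatives. The replicate block keeps only replicate numbers present in both groups, so comparisons with YFP-POS drop replicate 4 of the other group. The fit was tested on simulated counts with 200 changed genes. Copy ratios added 0.5 to each side of the ratio, after summing the copies on that side, and used exact permutation tests over unpaired libraries.

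Coordinates, promoters and coding ends came from RefSeq's TAIR10.1 by locus tag, which matched 48 of the 48 genes and 32835 of 33602 loci. Same-numbered sorted libraries deviated together, with correlations of 0.123 to 0.434, so the numbers pair them, and those of NO-SORT (-0.0817 to 0.0927) do not. The members and the other lists were chosen with earlier results of these data known. By rule, values in every library are given for the most abundant gene of each role class, the genes with the extreme fold changes in YFP-POS against YFP-NEG and ALL-SORT against NO-SORT, and the copies compared; other lists give the 2 largest called changes in each direction, and GLK1 and GLK2 always.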

Additional observations from a re-analysis of the deposited data

Results flagged for a closer look

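Of 168 groups of 4 values (the 48 genes, and the shares of counts of the role classes and of all genes together, in NO-SORT, ALL-SORT and YFP-NEG), 11 held a library whose distance from the nearest other, as a part of the group's range, exceeded Dixon's critical value, and chance gives about 1 in 20 such groups. Replicate 2 of ALL-SORT was the high library for 6 genes: LHCB5 at 1494 CPM (others 1157 to 1201), LHCB6 at 585.5 (468.2 to 485.5), PSBP1 at 951.6 (792.1 to 819), PSBR at 864.5 (617.8 to 655.2), PETC at 384.4 (271.7 to 281.5) and PETE2 at 819.9 (553.8 to 558.2). Replicate 1 of NO-SORT was high for LHCB1.4, at 9.642 CPM against 2.287 to 3.218, and for LHCB4.2, at 60.98 against 37.83 to 39.88. Replicate 2 of NO-SORT was high for PSAE2, at 134 CPM against 122 to 122.7, and for PSBW, at 440.8 against 414.8 to 418.4. Replicate 4 of YFP-NEG was high for PSBQ2, at 557.3 CPM against 482.7 to 486.8.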

How the results depend on the processing

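The lower calls in YFP-POS against YFP-NEG numbered 24 to 40 and those against NO-SORT 36 to 47 under the alternatives run, the lowest of each at an adjusted p under 0.01. In YFP-POS against ALL-SORT, 40 became 19 at an adjusted p under 0.01 and 15 to 38 with a library left out. In ALL-SORT against NO-SORT, genes called higher (0) became 2 with DESeq2, 1 with the replicate block, 1 with all libraries in the fit and 0 to 4 with a library left out. Genes called lower (0) became 1 with upper-quartile scaling, 3 with library totals, 2 with DESeq2, 1 with the replicate block, 2 with all libraries and 0 to 4 with a library left out. The median of -0.01 became -0.133 with library totals, -0.06 with upper-quartile scaling and -0.058 to 0.117 with a library left out. Over the libraries left out, 5.99% to 15.3% of all tested genes were called higher and 0.37% to 14.4% lower. In YFP-NEG against NO-SORT the 5 higher became 3 with library totals, with all libraries or at an adjusted p under 0.01, and 3 to 7 with a library left out. The median of -0.05 became -0.168 with library totals and -0.131 to 0.018 with a library left out. In YFP-NEG against ALL-SORT the 0 higher became 1 with DESeq2 and 0 to 1 with a library left out. The 2 lower became 1 with upper-quartile scaling or library totals, 4 with DESeq2, 10 with the replicate block, 5 with all libraries, 0 at an adjusted p under 0.01 and 0 to 5 with a library left out. With close copies summed, the sum of LHCB1.4 and LHCB1.5 passed in YFP-NEG against ALL-SORT (2 genes in 1 sum), where LHCB1.5 alone had passed. In YFP-POS against YFP-NEG that sum did not pass (-0.28, adjusted p = 0.219 by edgeR), where LHCB1.4 alone had passed. The cause of these shifts was not tested. Library totals moved the median of all genes from -0.036 to -0.158 in ALL-SORT against NO-SORT, from -0.004 to -0.121 in YFP-NEG against NO-SORT and from 0.006 to -0.137 in YFP-POS against NO-SORT. In the paired fit (replicate block) 32 genes were lower in YFP-POS against YFP-NEG, with LHCA3, LHCB1.4 and PSAD2 lost and PETE2 gained, and all 48 in YFP-POS against ALL-SORT. Both fits also leave out replicate 4 of the group compared with YFP-POS, so these counts do not show the effect of pairing alone. Counts were deep for all 48 genes except LHCB1.4, whose lowest count was 15.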
